A study of Mus musculus with 6 samples.

Results

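The cadherin, connexin and pannexin genes known from osteoblasts were followed by gene symbol in differentiated MC3T3-E1 cells given corticosterone. The 9 genes were the cadherins *Cdh2*, *Cdh11*, *Cdh4*, *Cdh13* and *Cdh15*, the connexins *Gja1* and *Gjc1*, and the pannexins *Panx1* and *Panx3*. Of these, 8 were found among the 24016 genes of the expression table, and *Cdh4* was not analysed here. MC3T3-E1 subclone 4 is a wild-type mouse preosteoblast line and a single clone, so the replicates are cultures of one cell line and not animals. Cells were differentiated for 6 days in 50 μg/ml ascorbic acid with 10 mM β-glycerophosphate. After differentiation the medium held vehicle or corticosterone at 100 nM for 24 h. Corticosterone is a glucocorticoid of the mouse adrenal gland. A protocol text shared by all 6 samples names 10 nM calcitriol, the active form of vitamin D, beside corticosterone, and does not say separately whether vehicle cultures received it. RNA was sequenced from 3 cultures per group, described as biological replicates, and the labels and the methods give different ranges of passage number.

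Cadherins are calcium-dependent adhesion proteins that bind the same kind of molecule on the next cell and are anchored by catenins to actin. Connexins assemble into hemichannels that dock between neighbouring cells as gap junctions, through which osteoblasts and osteocytes exchange ions and small signalling molecules. Pannexins form channels in single membranes and release ATP, and *Panx3* is the pannexin best known from skeletal cells.

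Values are normalized counts, meaning the reads of a gene divided by 1 factor per library. Between 16020401 and 25638645 reads were counted on genes per library, and all 3 corticosterone libraries were shallower than the vehicle libraries. The floor was set at 3 reads, which came to between 2.32 and 3.84 normalized counts, and covers counting error only. Groups were compared with limma on log2(normalized count + 0.1) over all genes, and a gene is said to have risen or fallen where the Benjamini-Hochberg adjusted p was under 0.05. A gene past the threshold also had an absolute log2 fold change over 1. A two-sided exact permutation test of 3 against 3 cultures cannot give a p below 0.1.

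Of the 8 genes, *Cdh11*, *Gja1*, *Gjc1* and *Panx3* fell with corticosterone and *Cdh2* rose. *Panx1*, *Cdh13* and *Cdh15* did not pass the test. Of the 8, the groups did not overlap for 1 gene that was higher and 5 that were lower with corticosterone, against 14.7% of all genes higher and 14.9% lower. Over all genes 16.7% passed, 8.49% higher and 8.2% lower, and 27.7% passed among the 13880 genes with a mean of at least 10. The filter of the test removed none of the 8, of which 6 had a mean of at least 10. *Cdh11* and *Panx3* were past the threshold, both lower. Over all genes 2.78% were past it, made up of 1.38% higher and 1.4% lower. The median log2 fold change was -0.52 over the 8 genes and -0.01 over all genes. In RNA from whole cultures, fewer cells of a type and less RNA per cell cannot be told apart.

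**Figure D1:**
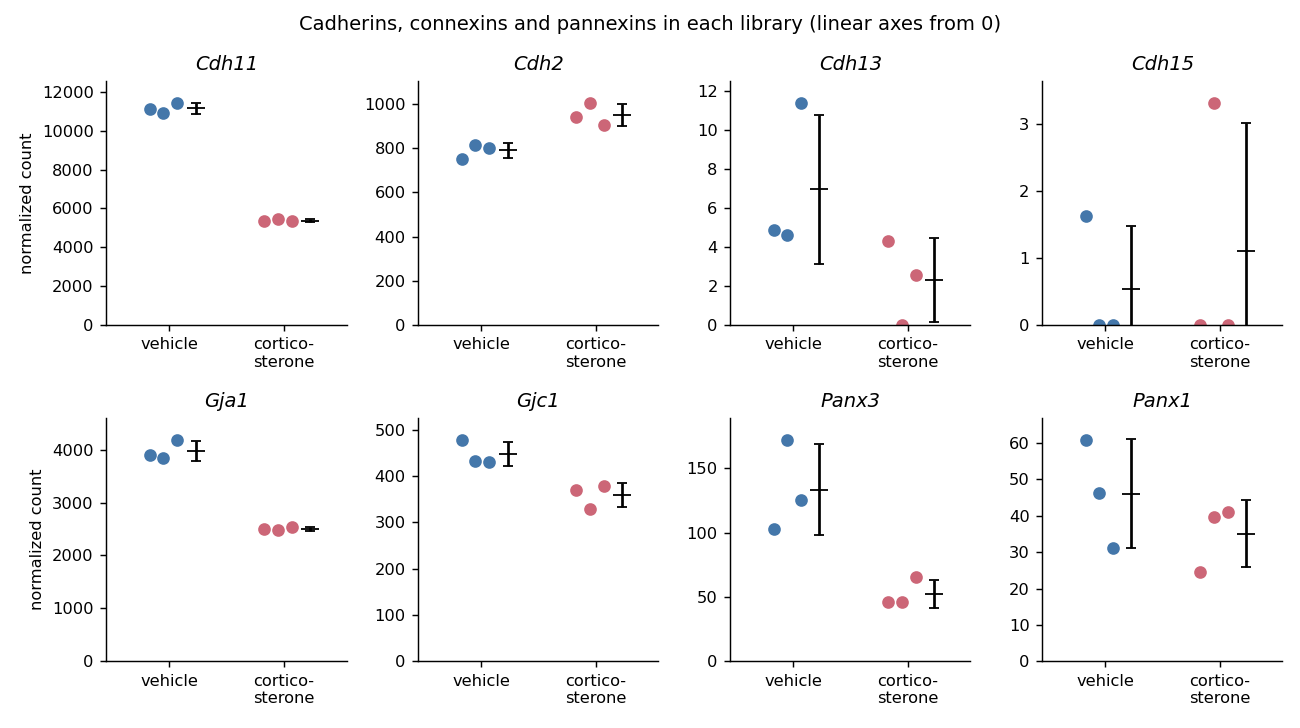
Normalized count (linear axis from 0) of the 8 genes in each of 3 vehicle and 3 corticosterone cultures, one point per culture, with the mean and SD beside the points. *Cdh11*, *Gja1*, *Gjc1* and *Panx3* sit lower in every corticosterone culture than in any vehicle culture, *Cdh2* sits higher, and the groups overlap for *Panx1* and *Cdh15*.

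*Cdh11* encodes cadherin-11, also called OB-cadherin, a type II classical cadherin of osteoblasts and other mesenchymal cells. The gene (ENSMUSG00000031673) is on the minus strand of chromosome 8 in GRCm38, from 102632095 to 102785642. Its normalized counts were 11130, 10893 and 11421 with vehicle and 5325, 5456 and 5335 with corticosterone. The groups were far apart, and cultures within a group differed by little. The mean went from 11148 ± 264 to 5372 ± 72.9 (SD, n = 3 per group). The log2 fold change was -1.05 (SE 0.04, 95% interval -1.13 to -0.97, limma adjusted p = 9.7e-12). Under the other settings and without each library in turn it lay between -1.15 and -1.04, and the call held each time. Of the 31-base stretches in *Cdh11* transcripts, 4.78% also occur in transcripts of other genes.

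*Cdh2* encodes N-cadherin, a type I classical cadherin that osteoblasts carry beside cadherin-11. The gene (ENSMUSG00000024304) lies on chromosome 18, 16588877 to 16809246, on the minus strand. Its normalized counts were 753, 816 and 803 with vehicle and 944, 1005 and 904 with corticosterone. Every corticosterone culture was above every vehicle culture, by a small margin. The mean went from 791 ± 33.0 to 951 ± 50.7, a ratio of 1.20. This was a log2 fold change of 0.27 (SE 0.06, 95% interval 0.14 to 0.39, limma adjusted p = 0.0048). Fitted without the variance trend, the call was lost (limma adjusted p = 0.13).

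Both cadherins therefore moved in opposite directions within the same cultures. The log2 ratio of *Cdh2* to *Cdh11*, which does not depend on how a library is scaled, was -3.88, -3.74 and -3.83 with vehicle. It was -2.50, -2.44 and -2.56 with corticosterone. The groups did not overlap, and the mean ratio was 1.32 higher on the log2 scale with corticosterone (exact permutation p = 0.1, the smallest this design allows). Without each library in turn the difference lay between 1.29 and 1.36.

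The other cadherins of the set were near the limit of detection. *Cdh13* encodes T-cadherin, which is tied to the membrane by a lipid anchor and has no catenin-binding tail. Its gene (ENSMUSG00000031841) lies on chromosome 8, 118283733 to 119324921, on the plus strand. It had normalized counts of 4.87, 4.63 and 11.4 with vehicle and 4.28, 0 and 2.56 with corticosterone, from at most 11 reads. The groups did not overlap, as held for 29.6% of all genes, yet corticosterone replicates 2 and 3 lay under the floor, with 0 and 2 reads. The log2 fold change of -2.62 had an SE of 1.24 and did not pass (limma adjusted p = 0.19). It was -1.48 with a pseudocount of 1 and -0.92 without corticosterone replicate 2, the library with no read.

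*Cdh15* encodes M-cadherin, known from skeletal muscle precursors, and lies on the plus strand of chromosome 8, 122847966 to 122867397 (ENSMUSG00000031962). It had 2 reads in vehicle replicate 1, 3 reads in corticosterone replicate 2 and none in the other 4 libraries. Both groups were at or under the floor, so no change can be read from it. The muscle markers analysed beside it, *Des*, *Ckm*, *Myh3* and *Acta1*, summed to 30.9 to 37.2 with vehicle and 39.8 to 42.8 with corticosterone.

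*Gja1* encodes the connexin Cx43, the main gap junction protein of osteoblasts and osteocytes. The gene (ENSMUSG00000050953) lies on chromosome 10, 56377330 to 56402513, on the plus strand. Its promoter is shown because *Gja1* stood second to *Cdh11* in level among the genes of the set and fell. That of *Panx1*, which did not pass the test, is shown for comparison. Both are RefSeq sequence of GRCm38.p6 from 250 bases before to 50 after the start site, at chr10:56377050-56377349 on the plus strand and chr9:15045429-15045728 on the minus strand. Capitals mark a match to a searched motif on either strand.
Gja1: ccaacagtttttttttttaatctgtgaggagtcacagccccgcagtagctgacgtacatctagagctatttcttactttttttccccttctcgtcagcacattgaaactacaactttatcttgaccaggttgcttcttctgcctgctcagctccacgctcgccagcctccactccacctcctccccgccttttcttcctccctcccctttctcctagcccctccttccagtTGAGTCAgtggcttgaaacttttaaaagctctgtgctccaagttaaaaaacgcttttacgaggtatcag
Panx1: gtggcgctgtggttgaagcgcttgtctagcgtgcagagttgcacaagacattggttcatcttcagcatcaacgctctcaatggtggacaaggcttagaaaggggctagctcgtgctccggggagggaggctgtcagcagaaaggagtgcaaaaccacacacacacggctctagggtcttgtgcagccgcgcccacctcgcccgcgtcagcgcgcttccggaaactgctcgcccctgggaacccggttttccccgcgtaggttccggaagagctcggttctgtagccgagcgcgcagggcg
The search covered 3 short motifs. *Gja1* held 1 match to TGANTCA, the AP-1 motif, beginning 19 bases before the start site, and 7.81% of 32851 mouse promoters of this length held one. Neither window held AGAACA, the core letters of glucocorticoid receptor elements, which occur in 19.0% of promoters, or GGGCGG, the GC box, which occurs in 35.7%. *Cdh15*, the only other gene of the set with a promoter in the table used, held 3 matches to GGGCGG and none to the others. No matches overlapped each other. A match describes letters in a window and not a bound site.

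Normalized counts of *Gja1* were 3890, 3843 and 4183 with vehicle and 2501, 2475 and 2546 with corticosterone. All 3 corticosterone cultures lay below all vehicle cultures, and they differed less among themselves. The mean fell from 3972 ± 184 to 2507 ± 35.8 (SD, n = 3 per group). The log2 fold change was -0.66 (SE 0.04, 95% interval -0.76 to -0.57, limma adjusted p = 1.5e-08), short of the threshold of 1. Over the other settings it lay between -0.71 and -0.66, and without each library in turn between -0.69 and -0.62, with the call kept throughout.

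*Gjc1* encodes Cx45, a connexin whose channels conduct less than those of Cx43 and which can join Cx43 in mixed junctions. The gene (ENSMUSG00000034520) lies on chromosome 11, 102799579 to 102819700, on the minus strand. Its normalized counts were 478, 433 and 430 with vehicle and 369, 329 and 379 with corticosterone. The groups did not overlap, but the gap between the lowest vehicle and the highest corticosterone culture was about as wide as the spread within a group. The mean fell from 447 ± 26.6 to 359 ± 26.3, with a log2 fold change of -0.32 (SE 0.08, 95% interval -0.49 to -0.15, limma adjusted p = 0.010). The call was lost without vehicle replicate 1 (limma adjusted p = 0.068), without vehicle replicate 3 (0.053), without corticosterone replicate 2 (0.067) and without the variance trend (0.13).

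The log2 ratio of *Gja1* to *Gjc1* was 3.03, 3.15 and 3.28 with vehicle and 2.76, 2.91 and 2.75 with corticosterone. The groups did not overlap, and the mean log2 ratio was lower with corticosterone by a difference of -0.35 (exact permutation p = 0.1). Without each library in turn it lay between -0.41 and -0.28.

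*Panx3* encodes a pannexin of cartilage, bone and skin cells, which acts as a channel for ATP at the surface and for calcium in internal membranes. The gene (ENSMUSG00000011118) lies on chromosome 9, 37659902 to 37669235, on the minus strand. Its normalized counts were 103, 172 and 125 with vehicle and 46.0, 46.4 and 65.2 with corticosterone, from 42 to 223 reads. No corticosterone culture reached the lowest vehicle culture, although vehicle cultures differed widely. The mean fell from 133 ± 35.3 to 52.6 ± 11, a log2 fold change of -1.33 (SE 0.20, 95% interval -1.76 to -0.90, limma adjusted p = 1.4e-04), which was the lowest among the genes of the set that passed. Without the variance trend the limma adjusted p was 0.055.

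*Panx1* encodes the widely expressed pannexin whose channels release ATP. The gene (ENSMUSG00000031934) lies on chromosome 9, 15002128 to 15045478, on the minus strand. Its normalized counts were 60.8, 46.3 and 31 with vehicle and 24.6, 39.8 and 40.9 with corticosterone. The groups overlapped, and the spread within each was as wide as the distance between them. The log2 fold change was -0.37 with a 95% interval of -0.99 to 0.24 (limma adjusted p = 0.48), which takes in no change as well as a fall of close to 1 on the log2 scale.

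The log2 ratio of *Panx3* to *Panx1* was 0.76, 1.89 and 2.01 with vehicle and 0.90, 0.22 and 0.67 with corticosterone. Vehicle replicate 1 lay among the corticosterone cultures, and the difference of -0.96 was not resolved (exact permutation p = 0.2). A different response of the pannexins to corticosterone was therefore not shown.

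**Figure D2:**
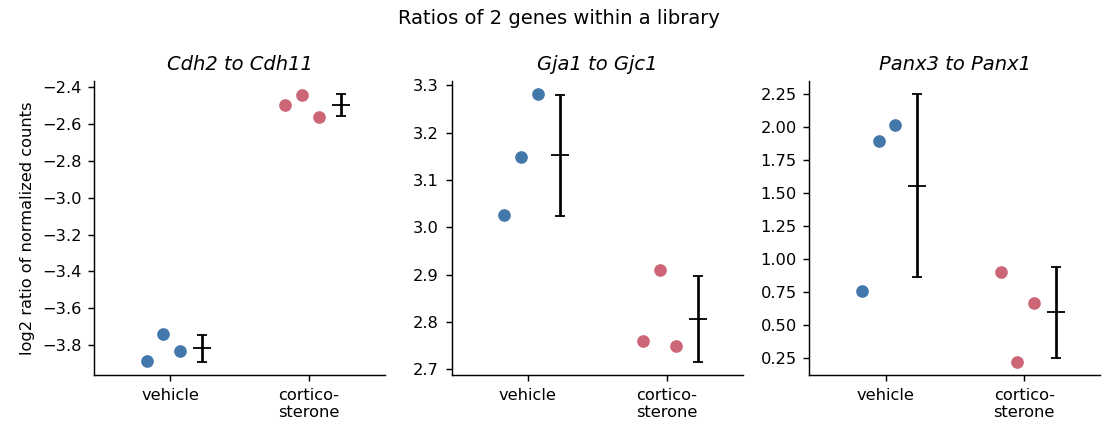
Log2 ratio of the normalized counts of 2 genes within each culture, with vehicle and corticosterone groups side by side, one point per culture and the mean with SD beside them. The ratio of *Cdh2* to *Cdh11* was 1.32 higher with corticosterone and that of *Gja1* to *Gjc1* 0.35 lower, both without overlap, while the ratios of *Panx3* to *Panx1* overlapped.

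Levels of different genes were compared per kb of the longest protein-coding transcript. With vehicle, *Cdh11* had the highest level of the set at 1974 ± 46.8 normalized counts per kb, followed by *Gja1* at 1248 ± 57.9. *Gjc1* at 193 ± 11.5 and *Cdh2* at 163 ± 6.80 came next, then *Panx3* at 52.7 ± 13.9 and *Panx1* at 8.03 ± 2.60. *Cdh13* at 1.84 ± 1.01 and *Cdh15* at 0.166 ± 0.288 were last, both from counts at or near the floor.
With corticosterone, *Cdh11* at 951 ± 12.9 and *Gja1* at 788 ± 11.2 still led. *Cdh2* at 196 ± 10.5 then stood above *Gjc1* at 155 ± 11.4, so this pair changed places. With the merged length of all exons in place of the transcript, *Cdh2* was already above *Gjc1* with vehicle, at 98.0 against 89.3 normalized counts per kb, so their order with vehicle depends on the length used.

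Among the 18 other cadherins, 9 were analysed, of which 2 rose and 1 fell. *Cdh22*, a brain-associated classical cadherin, was second to *Cdh11* per kb. Its normalized counts were 1277, 1139 and 1123 with vehicle and 1336, 1370 and 1497 with corticosterone, a log2 fold change of 0.25 (limma adjusted p = 0.0092), and the call was lost without vehicle replicate 2 or 3 or corticosterone replicate 3. *Cdh23*, known from the tip links of hair cells, went from 33.3 ± 2.01 to 70.4 ± 5.82 (log2 fold change 1.08, limma adjusted p = 0.0010) and kept its call throughout. *Cdh24* fell (log2 fold change -0.42, limma adjusted p = 0.028), but its groups overlapped and the call was lost without any single library other than vehicle replicate 1. The calls of *Cdh22* and *Cdh24* were also lost without the variance trend. *Cdh1*, the cadherin of epithelia, had at most 6 reads in a library.

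Across the 13 cadherins analysed, *Cdh11* made up 72.7% ± 1.49 of the summed normalized counts per kb with vehicle and 54.2% ± 1.25 with corticosterone (SD, n = 3, exact permutation p = 0.1). The share of *Cdh22* went from 11.7% ± 0.946 to 21.5% ± 0.909, and that of *Cdh2* from 6.01% ± 0.212 to 11.2% ± 0.679. The sum itself went from 2715 ± 24.9 to 1756 ± 41.0. Per kb, *Cdh22* went from 319 ± 22.9 to 378 ± 22.9, a smaller change than its share made. *Cdh11* stayed first in every library. With the merged length of all exons, its share was 65.3% ± 1.75 with vehicle and 45.8% ± 1.47 with corticosterone, so the size of the share depends on the length used.

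The 2 genes given next do not stand for the other connexins and pannexins, over which no count is given. *Gja4*, another connexin, was at or under the floor with vehicle, and had 9.64, 4.42 and 5.12 with corticosterone (limma adjusted p = 0.060). *Panx2* had 17.0, 27.0 and 26.9 with vehicle and 15.0, 8.84 and 12.8 with corticosterone, and did not pass (limma adjusted p = 0.12).

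**Figure D3:**
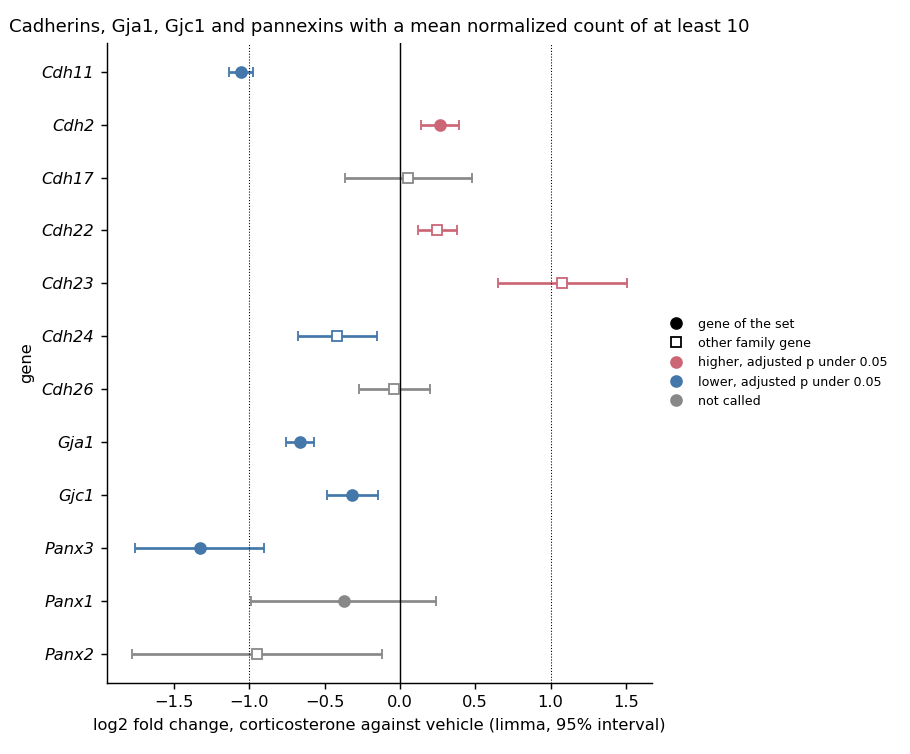
Log2 fold change of corticosterone against vehicle with its 95% limma interval for the cadherins, the pannexins, *Gja1* and *Gjc1* with a mean normalized count of at least 10. Filled circles are genes of the set, open squares other family genes, and dotted lines mark a log2 fold change of 1 in either direction, with *Cdh11* and *Panx3* past the lower line and *Cdh23* past the upper one.

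Of the 3 pannexins, *Panx3* made up 77.3% ± 4.51 of the summed normalized counts per kb with vehicle and 67.9% ± 2.26 with corticosterone (exact permutation p = 0.1). The sum went from 67.7 ± 14.5 to 30.5 ± 5.39. With the merged length of all exons, the share of *Panx3* was 72.7% ± 5.11 with vehicle and 62.2% ± 2.44 with corticosterone.

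**Figure D4:**
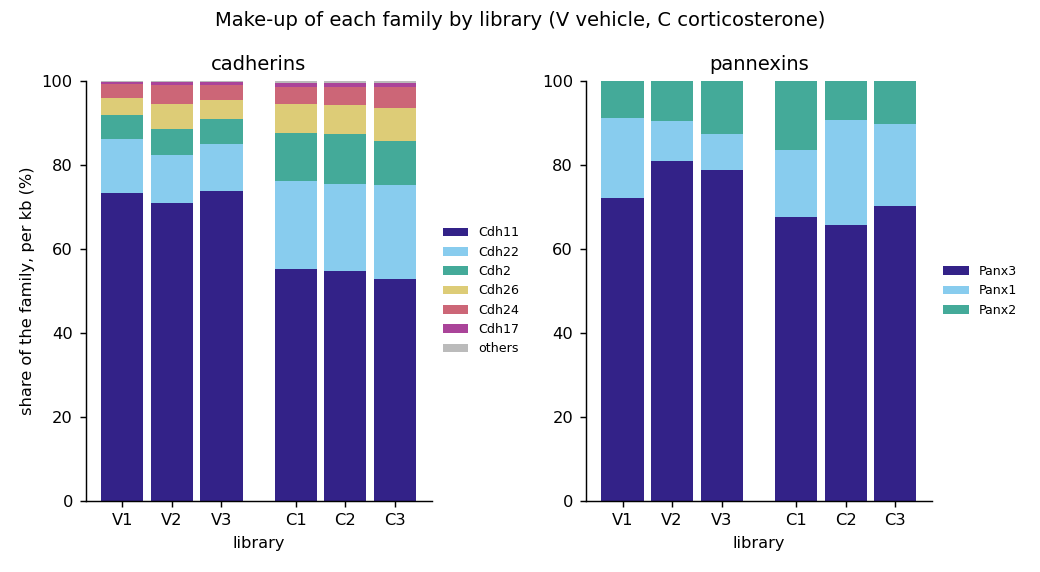
Share of each gene in the summed normalized counts per kb of the cadherins and of the pannexins (stacked to 100%), one bar per culture, with vehicle (V) and corticosterone (C). The *Cdh11* part is smaller in each corticosterone bar, at a mean of 54.2% against 72.7% with vehicle, and the *Cdh22* and *Cdh2* parts are larger.

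Of the 17 catenins and adherens junction partners, 14 were analysed, and 4 rose and 4 fell. *Ctnnb1*, which encodes β-catenin, the link between cadherin tails and α-catenin, had 8590, 8986 and 8880 normalized counts with vehicle and 8658, 8765 and 8964 with corticosterone. The groups overlapped, and the log2 fold change was 0.00 with a 95% interval of -0.08 to 0.08 (limma adjusted p = 0.98). *Ctnna1*, which encodes α-catenin, and *Ctnnd1*, which encodes p120-catenin, fell by small amounts (log2 fold changes -0.17 and -0.24, limma adjusted p = 0.0078 and 0.0060), and both calls were lost without vehicle replicate 3, that of *Ctnna1* also without corticosterone replicate 1. *Pkp4*, another relative of p120-catenin, fell by 0.22 on the log2 scale, a call that was also lost without vehicle replicate 3.
*Arvcf*, a relative of p120-catenin, rose (log2 fold change 0.78, limma adjusted p = 6.3e-06), as did *Ctnnal1* (0.50, limma adjusted p = 1.3e-05) and *Vcl*, which encodes vinculin (0.21, limma adjusted p = 0.0017). The call of *Vcl* was lost under quantile normalization and without the variance trend. *Nectin1*, which encodes a calcium-independent adhesion molecule found beside cadherins, went from 222, 230 and 259 to 571, 520 and 620. Its log2 fold change of 1.27 (limma adjusted p = 2.0e-08) was past the threshold and its groups were far apart. *Nectin4* had at most 30.1 normalized counts in a library, and its fall (-1.77, limma adjusted p = 0.028) was lost without any single library other than vehicle replicate 1. The calls of *Ctnna1*, *Ctnnd1*, *Pkp4* and *Nectin4* were also lost without the variance trend.

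All 10 connexin partners were analysed, of which 1 rose and 1 fell. *Tjp1*, which encodes the scaffold ZO-1 that binds the tail of Cx43, had 1521, 1545 and 1563 normalized counts with vehicle and 1406, 1483 and 1504 with corticosterone, and did not pass (log2 fold change -0.08, limma adjusted p = 0.37). *Ezr*, which encodes the membrane and actin linker ezrin, rose from 1194 ± 80.9 to 2129 ± 258 (log2 fold change 0.83, limma adjusted p = 4.4e-07). *Src*, a kinase that phosphorylates Cx43, fell (log2 fold change -0.27, limma adjusted p = 0.0011), a call lost without the variance trend (limma adjusted p = 0.071).

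Of the 7 transcription factors known to repress cadherin genes in epithelia, 6 were analysed, and 1 rose and 4 fell. *Snai1* rose from 790 ± 19.3 to 1224 ± 93.0 (log2 fold change 0.63, limma adjusted p = 1.1e-06), while *Snai2* fell from 415 ± 38.9 to 271 ± 9.13 (log2 fold change -0.61, limma adjusted p = 6.3e-05). *Twist1*, *Zeb1* and *Zeb2* fell by 0.39, 0.27 and 0.25 on the log2 scale, and the call of *Zeb1* was lost without vehicle replicate 3. Without the variance trend the calls of *Twist1*, *Zeb1* and *Zeb2* were lost (limma adjusted p = 0.073, 0.17 and 0.071). The list thus did not move as one.

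By the distance between centred log2 profiles over the 6 libraries, the genes most like *Cdh11* among 10558 with a mean of at least 100 were *Tead2*, *Cemip2* and *Nrg1*. Their root mean square distances were 0.05, 0.06 and 0.06 on the log2 scale, with log2 fold changes of -1.06, -1.0 and -1.05. Those most like *Cdh2* were *Srrm2*, *Sugp2* and *Stk24*, at 0.01, 0.02 and 0.03, with log2 fold changes of 0.27, 0.24 and 0.26. With 2 groups of 3, such a distance is set largely by how close the group differences are.

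The label of the cells was checked against markers. All 11 osteoblast markers were analysed, 8 fell and 1 rose, and they summed to between 1486076 and 1537212 with vehicle and between 1287429 and 1346197 with corticosterone. *Runx2*, the master transcription factor of osteoblasts, fell by 1.16 on the log2 scale, *Sp7* by 1.34 and *Bglap*, which encodes osteocalcin, by 1.87. The falls of *Col1a1* and *Alpl* were smaller (log2 fold changes -0.15 and -0.41), and these calls were lost without 4 and 3 of the single libraries. That of *Col1a1* was also lost with a pseudocount of 0.01, with a minimum mean of 10 and under quantile normalization. *Spp1*, which encodes osteopontin, rose by 0.23 on the log2 scale. *Dmp1* (log2 fold change 0.05) and *Phex* (at most 9.94 normalized counts), both markers of later stages, did not pass. Of the 11 markers, 8 thus moved in the direction of *Cdh11*, *Gja1* and *Panx3*, and their part in these results was not tested. Of adipocyte markers, *Fabp4* and *Plin1* were analysed, with a sum of 7.72 to 21.1 with vehicle and 108 to 133 with corticosterone. Nearly all of it came from *Fabp4*, which rose by 3.14 on the log2 scale and held its call under every setting. *Plin1* was at 0 in 5 of 6 libraries and did not pass.
Of chondrocyte markers, 4 of 6 were analysed, with a sum of 3543 to 3956 with vehicle and 2987 to 3017 with corticosterone. Of these, 2 fell and 1 rose. *Col2a1* fell by 0.80 on the log2 scale, the same direction as *Panx3*, and held its call under every setting. *Sox9* fell by 0.16, a call lost without 5 of the single libraries. *Col10a1*, a marker of hypertrophic chondrocytes, rose by 0.73, a call lost without vehicle replicate 3 or corticosterone replicate 1, and *Matn1* was near 0. The part of these genes in the result of *Panx3* was not tested. Endothelial markers (4 of 6) summed to 22.8 to 50.3 with vehicle and 39.8 to 55.0 with corticosterone, mostly from *Vwf*. Epithelial markers (4 of 6) summed to at most 12.4 in a library, with *Cldn4* at 0 in 5 of 6 libraries. Macrophage and leukocyte markers (3 of 6) summed to 310 to 357 with vehicle and 264 to 312 with corticosterone, and *Lyz2* fell by 0.37, a call lost under DESeq2 and without vehicle replicate 1 or 2 or corticosterone replicate 1 or 2. The calls of *Col1a1*, *Alpl*, *Spp1*, *Sox9*, *Col10a1* and *Lyz2* were also lost without the variance trend.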

How the data were processed

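RNA-seq was made from 3 vehicle and 3 corticosterone cultures, and the methods name DESeq2 for the study's own test. The authors deposited 1 table with a signal for each gene in each library, called FPKM and never below 0. Divided by 1 step per library, 100% of the values come out whole for short and long genes alike (tolerance 0.01 of a read), so they are read counts over size factors, here 0.782 to 1.30. The aligner, counter, annotation and use of strand are not given in the sources used here, and the submitters' processing notes name mm10. Counts of cultures in the same group differed by more than sampling noise (chi-square over its degrees of freedom of 3.38 or more), so all 6 were kept. This value was 4.63 to 12.2 between vehicle cultures, highest for replicates 1 and 2, and 3.38 to 4.79 between corticosterone cultures.

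The design assumed FPKM and was kept as written: limma 3.58.1 (lmFit and eBayes, variance trend) on log2(value + 0.1) in R 4.3.3, with a minimum mean of 0.1, which no gene missed, the lowest mean being 0.257. The genes described and the lists were chosen with earlier results of these data known. The genes named were the 9 described, genes of the lists, and the 3 nearest profiles to *Cdh11* and *Cdh2*. Alternatives were other pseudocounts, filters, scalings and variance priors, a replicate block, edgeR 4.0.16 and DESeq2 1.42.0 on the recovered reads, and leaving out each library. The shares of genes among the cadherins and the pannexins were not part of the design. Those with merged exon lengths were added after seeing the data. The fits were tested on simulated counts. GENCODE's annotation of GRCm38 gave symbols to 23983 genes (33 had none), and coordinates and lengths. Values of 3 genes in the lists are not reported here, although all models and list counts contain them. Exons of the 8 genes overlap those of no other gene. The table holds no comparisons by the authors. Other tools were Python 3.11.15 with pandas 2.3.3, numpy 2.4.6, scipy 1.17.1 and, for the figures, matplotlib 3.10.9.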

Additional observations from a re-analysis of the deposited data

How the results depend on the processing

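Filters at a mean of 10 and in edgeR removed *Cdh13* and *Cdh15*. The calls of *Cdh11* and *Gja1* held under all 15 other settings and without each library in turn, and no gene of the set with a mean of at least 10 changed direction. Without the variance trend, 2 of the genes of the set passed in place of 5 and 1 was past the threshold in place of 2, while 1633 of all genes passed (873 higher, 760 lower) in place of 4010 (2040 higher, 1970 lower). Scaling to the same total gave 1703 higher and 2521 lower among all genes, and again 5 genes of the set. Without single libraries, 2567 to 3484 of all genes passed, the lowest without vehicle replicate 3. The fitted difference of *Cdh15*, which rests on 5 reads and is no measure of a change, was -0.36 without vehicle replicate 2 or 3 and -1.37 without corticosterone replicate 2, on the log2 scale in place of 0.33, and ranged up to 1.70 without vehicle replicate 1. edgeR, DESeq2 and limma each called 5 genes of the set. Of 30 called genes of the pathway lists, 12 kept their call under every setting, 12 lost it without at least 1 library (11 of them without vehicle replicate 3), and 18 lost it without the variance trend. The cause of these losses was not tested. Scaling to the same total moved the median log2 fold change of all genes from -0.01 to -0.05, the largest shift of any setting.

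The labels number the cultures 1 to 3 in either group and do not say that a number pairs them. Deviations from the group means of same-numbered cultures correlated at -0.04, 0.001 and 0.02 over 13880 genes. Those of cultures with different numbers lay between -0.06 and 0.07. No shared deviation was seen, but with 3 cultures per group this cannot tell whether the cultures were paired. With the replicate block, 3905 of all genes passed and 5 of the set, and 591 of all genes were past the threshold in place of 668, so the block changed no call of the set. At this depth *Cdh13* and *Cdh15*, with at most 11 reads per library, could not be resolved, and precision rests on 3 cultures per group.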

Other observations

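Genes that act on what pannexin channels release were also measured. Of 22 purinergic receptors and ectonucleotidases, 18 were analysed, and 3 rose and 2 fell. Under the other settings and without single libraries, 3 rose each time, and between 0 and 4 fell. *P2rx5*, which encodes an ATP-gated ion channel, had normalized counts of 182, 204 and 205 with vehicle and 525, 541 and 495 with corticosterone (log2 fold change 1.40, limma adjusted p = 3.3e-09). *Nt5e*, which encodes the enzyme CD73 that makes adenosine from AMP outside the cell, went from 204, 269 and 203 to 494, 530 and 468 (log2 fold change 1.15, limma adjusted p = 4.8e-07). *Entpd3*, which encodes an enzyme that degrades ATP outside the cell, rose from 716 ± 65.5 to 1081 ± 61.4 (log2 fold change 0.60, limma adjusted p = 9.7e-06). These 3 calls held under every setting tried, and in none of the 3 did the groups overlap. *P2rx7*, the ATP receptor most often paired with *Panx1*, had a log2 fold change of -0.20 and did not pass (limma adjusted p = 0.052). *Adora2b*, an adenosine receptor, fell from 20.1 ± 2.83 to 4.02 ± 3.36 (limma adjusted p = 0.0094), and *P2rx6* fell by 0.74 on the log2 scale (limma adjusted p = 0.013). Both calls were lost without vehicle replicate 1 or 2, that of *Adora2b* also without vehicle replicate 3 and that of *P2rx6* also without corticosterone replicate 1 or 3. Without the variance trend both were lost too.

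A list of 21 unclustered protocadherin, Fat, Dachsous and Celsr genes covered larger relatives of the classical cadherins. Of these, 13 were analysed, and 1 rose and 4 fell. Protocadherins of the gene clusters were not in the list. *Pcdh18* had normalized counts of 565, 527 and 569 with vehicle and 299, 319 and 301 with corticosterone, far apart (log2 fold change -0.85, limma adjusted p = 2.3e-07). *Pcdh19* rose from 369 ± 35.2 to 491 ± 31.6 (log2 fold change 0.42, limma adjusted p = 0.0019). *Dchs1* and *Dchs2*, which encode Dachsous cadherins that bind Fat proteins on the next cell, fell by 2.35 and 0.65 on the log2 scale, that of *Dchs1* ranging from -2.90 to -1.47 without single libraries. *Fat1* had normalized counts of 5524, 5313 and 5731 with vehicle and 5008, 4779 and 5005 with corticosterone, and fell by 0.16. The calls of *Dchs1*, *Dchs2* and *Fat1* were each lost without vehicle replicate 3. That of *Dchs1* was also lost without vehicle replicate 1 or 2, that of *Dchs2* without vehicle replicate 2 or corticosterone replicate 1 or 3, and that of *Fat1* without corticosterone replicate 2. Without the variance trend the calls of *Pcdh19*, *Dchs1*, *Dchs2* and *Fat1* were lost. *Fat4*, the receptor partner of *Dchs1*, did not pass (log2 fold change 0.10, limma adjusted p = 0.46).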
